A study of Papio hamadryas with 160 samples.

Results

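The cerebellum was compared with the neocortex of the same baboons (Papio hamadryas) by small RNA sequencing of bulk tissue. The comparison holds 23 of the 76 libraries of the series: the CB (lateral cerebellum) library of animals B1, B3, B4, B5 and B6, and as its reference the 18 libraries of their dorsolateral prefrontal cortex (dlPFC, 5 libraries), motor cortex (MC, 4, none for B4), posterior parietal cortex (PPC, 5) and occipital cortex (OC, 4, none for B6). All animals were adult Group B baboons that had been exsanguinated under general anesthesia, and their brain regions were dissected fresh and flash frozen. The labels name no allele or treatment and do not give the sex or age of an animal. The authors describe Group B as males and a younger female that served as controls in a pregnancy study. An animal's neocortex value is the mean of log2(RPM + 1) over its neocortical libraries, where RPM is the reads of a miRNA per 1000000 mapped miRNA reads of the library, and the animal is the replicate (5 pairs). A difference is cerebellum minus neocortex on the log2(RPM + 1) scale, which understates the change of low miRNAs. Per-library values of the cerebellum are given in the order B1, B3, B4, B5, B6.

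MicroRNAs (miRNAs) are short RNAs that guide Argonaute proteins to messenger RNAs with matching sites and lower their output. Most are cut as a pair of arms (5p and 3p) from a hairpin, many are transcribed together with neighbours in clusters or from introns of a host gene, and the same family often has copies in several clusters. The cerebellum is dominated by densely packed granule neurons and derives from the hindbrain, while the neocortex is a forebrain structure of layered excitatory projection neurons, inhibitory interneurons and glia. In bulk tissue, fewer cells of a type and less of a miRNA per cell cannot be told apart.

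The cerebellum libraries held 3214212 to 7036389 reads (median 4057006) and the neocortex libraries 1425625 to 2868142 (median 2226369), so every cerebellum library was deeper than every neocortex library, and depth and tissue cannot be told apart. The limit that a count of 0 allows (3 reads) was 0.426 to 0.933 RPM in the cerebellum and 1.05 to 2.10 RPM in the neocortex, for counting error only. The neuronal miRNAs miR-124, miR-128 and miR-9 were abundant in both tissues. Markers of other cells are given with their values below.

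Of the miRNAs in the table, 285 (78.7%) passed an adjusted p of 0.05 in limma with the animal as a block. They were 84 higher in the cerebellum (23.2%) and 201 lower (55.5%), and 77 did not pass. The median of all differences was -0.41. Under median-of-ratios scaling that median was -0.02 and the split was 135 higher (37.3%) with 40.1% lower, and under quantile normalization it was 0.13 with 161 higher (44.5%) and 37.8% lower. Of the 285, 229 were called in the same direction and 1 in the opposite direction under median of ratios, and 220 and 16 under quantile normalization. Small differences are therefore read against -0.41. In RPM, large differences were mostly losses: 19 miRNAs (5.25%) were at least 2-fold higher and past the threshold, against 116 (32%) at least 2-fold lower. At 4 or more on the log2 scale there were 7 miRNAs, all lower in the cerebellum. All 5 cerebellum libraries lay above all 18 neocortex libraries for 40 miRNAs (11%) and below them for 101 (27.9%). These counts rest on RPM, where the median is -0.41, and were not made under the other scalings. The miRNAs had been kept for at least 10 reads in 80% or more of brain samples. One confined to the cerebellum could therefore not enter, while one nearly lost there could. The part of this filter in the balance was not tested. Over the miRNAs of at least 50 RPM, the median SD between animals was 0.22 in the cerebellum and 0.18 in the neocortex on the log2 scale. The cerebellum value of an animal is a single library and its neocortex value a mean over libraries, so these SDs are not like measures.

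**Figure D1:**
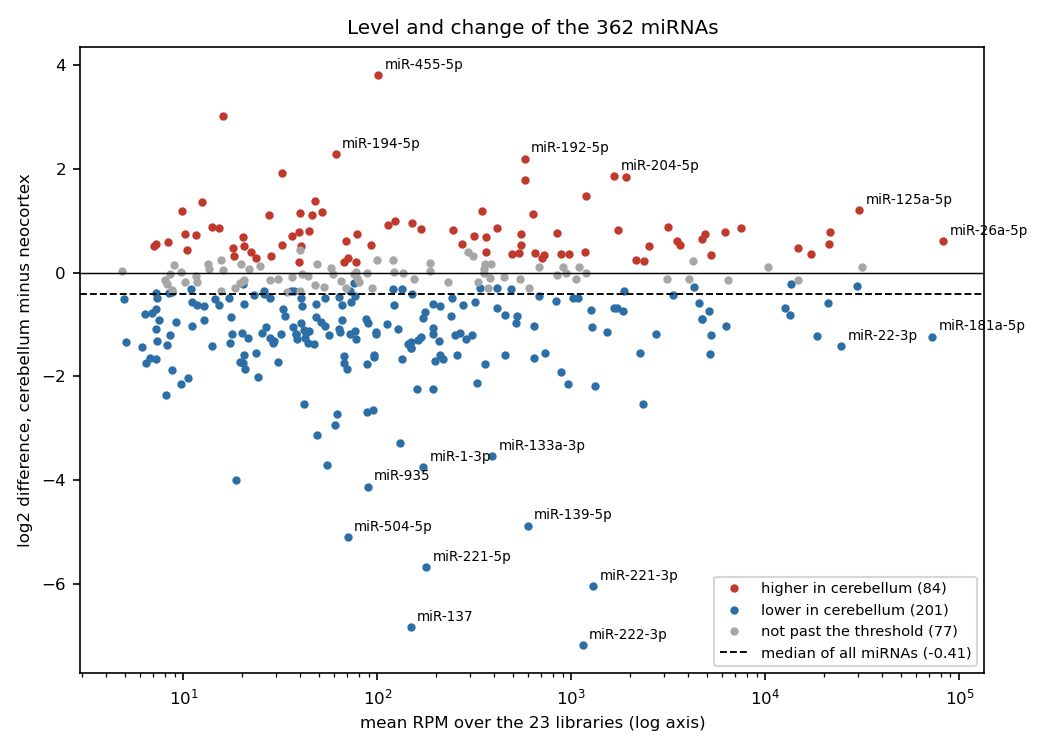
Log2 difference (cerebellum minus neocortex, vertical) against the mean RPM over the 23 libraries (log axis) for all miRNAs tested. Red points are the 84 higher and blue points the 201 lower miRNAs past an adjusted p of 0.05, grey points the other 77, and the dashed line is the median of all miRNAs at -0.41. The points farthest from zero lie below it. The miRNAs had been kept for reads in 80% or more of brain samples, so one confined to the cerebellum could not appear.

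The cluster of miR-221 and miR-222, a pair of X-linked miRNAs known in human cells for repressing the cell cycle inhibitor p27, was strongly depleted but detected in the cerebellum. hsa-miR-222-3p stood at 9.61, 6.16, 11.8, 6.88 and 8.40 RPM in the cerebellum, against 512 to 2463 (median 1380) RPM in the neocortex. The difference was -7.17 ± 0.17 (± SE throughout, adjusted p = 2.9e-08 in limma), the largest of all miRNAs tested. hsa-miR-221-3p had 20.6, 21.7, 22.5, 17.1 and 29.9 RPM in the cerebellum, against 687 to 2619 (median 1584) RPM in the neocortex, a difference of -6.04 ± 0.13. The other arm of that hairpin, hsa-miR-221-5p, was at 1.85 to 5.67 RPM in the cerebellum and 108 to 365 RPM in the neocortex (-5.68 ± 0.21). All 3 members were lower in all 5 animals, with no overlap between the tissues, while 27.9% of all miRNAs lay wholly below the neocortex.

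hsa-miR-137, a neuronal miRNA whose locus is linked to schizophrenia risk in humans, was at the limit of detection in the cerebellum. Its RPM there were 0.85, 0.25, 0.99, 0 and 0.93, which are 3, 1, 7, 0 and 3 reads, against 76.8 to 317 (median 176) RPM (up to 862 reads a library) in the neocortex. Pooled over libraries it had 14 reads of 23801883 in the cerebellum, against 7616 of 39606387 in the neocortex, a neocortex level 327 times as high (exact 95% counting interval 194.7 to 598.3, for counting error only). The fitted difference of -6.83 ± 0.17 depends on the pseudocount and is no bound. The miRNA was not shown to be absent, since 4 of the 5 libraries held reads.

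hsa-miR-139-5p, which in humans lies in an intron of the phosphodiesterase gene PDE2A, was depleted evenly across animals. It had 20.4, 28.8, 25.3, 28.5 and 19.6 RPM in the cerebellum, against 528 to 1097 (median 728) RPM in the neocortex (-4.87 ± 0.09, adjusted p = 1.7e-08). Its 3p arm, hsa-miR-139-3p, gave only 13 reads in the 5 cerebellum libraries together, against 25 to 89 reads in each neocortex library. hsa-miR-138-5p, which limits dendritic spine size in rat hippocampal neurons, averaged 337.9 ± 39.2 RPM in the cerebellum and 1543 ± 94.2 RPM in the neocortex (SD, n = 5 animals each), a difference of -2.19 ± 0.09. All 5 members of the list of miR-138 and miR-139 were lower, beside 55.5% of all miRNAs.

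hsa-miR-504-5p, in an intron of FGF13 in humans, was at 0.85 to 2.80 RPM in the cerebellum, against 61.4 to 132.7 RPM in the neocortex (-5.10 ± 0.16). hsa-miR-935 was at 2.71 to 7.25 RPM in the cerebellum, against 64.0 to 157 RPM in the neocortex (-4.12 ± 0.16). hsa-miR-490-3p, in an intron of the muscarinic receptor gene CHRM2 in humans, had 2.46 to 5.37 RPM in the cerebellum and 31.8 to 126.6 RPM in the neocortex (-3.71 ± 0.16). Both arms of miR-708, whose human host gene is the teneurin gene TENM4, were lower, hsa-miR-708-5p by a difference of -3.28 ± 0.12 and hsa-miR-708-3p by -2.93 ± 0.10. None of these 5, picked among the largest differences, overlapped between the tissues, while 27.9% of all miRNAs lay wholly below the neocortex.

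hsa-miR-1-3p and hsa-miR-133a-3p, which are made from shared transcripts in heart and skeletal muscle, completed the 12 most depleted miRNAs of at least 50 RPM on average. hsa-miR-1-3p had 13.9, 11.3, 2.84, 21.8 and 14.3 RPM in the cerebellum, against 36.3 to 507 (median 194.2) RPM in the neocortex (-3.75 ± 0.16). Animal B4 was the lowest animal in both tissues, at 2.84 RPM in its cerebellum and 49.6 RPM in its neocortex, and the differences within the 5 animals ran from -4.36 to -3.29. hsa-miR-133a-3p had 33.6, 38.5, 28.0, 62.3 and 32.7 RPM in the cerebellum, against 194.9 to 867 (median 444) RPM in the neocortex (-3.53 ± 0.15). Of the 4 muscle miRNAs 3 were lower, beside 55.5% of all miRNAs, while hsa-miR-208b-3p did not pass (-0.02).

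**Figure D2:**
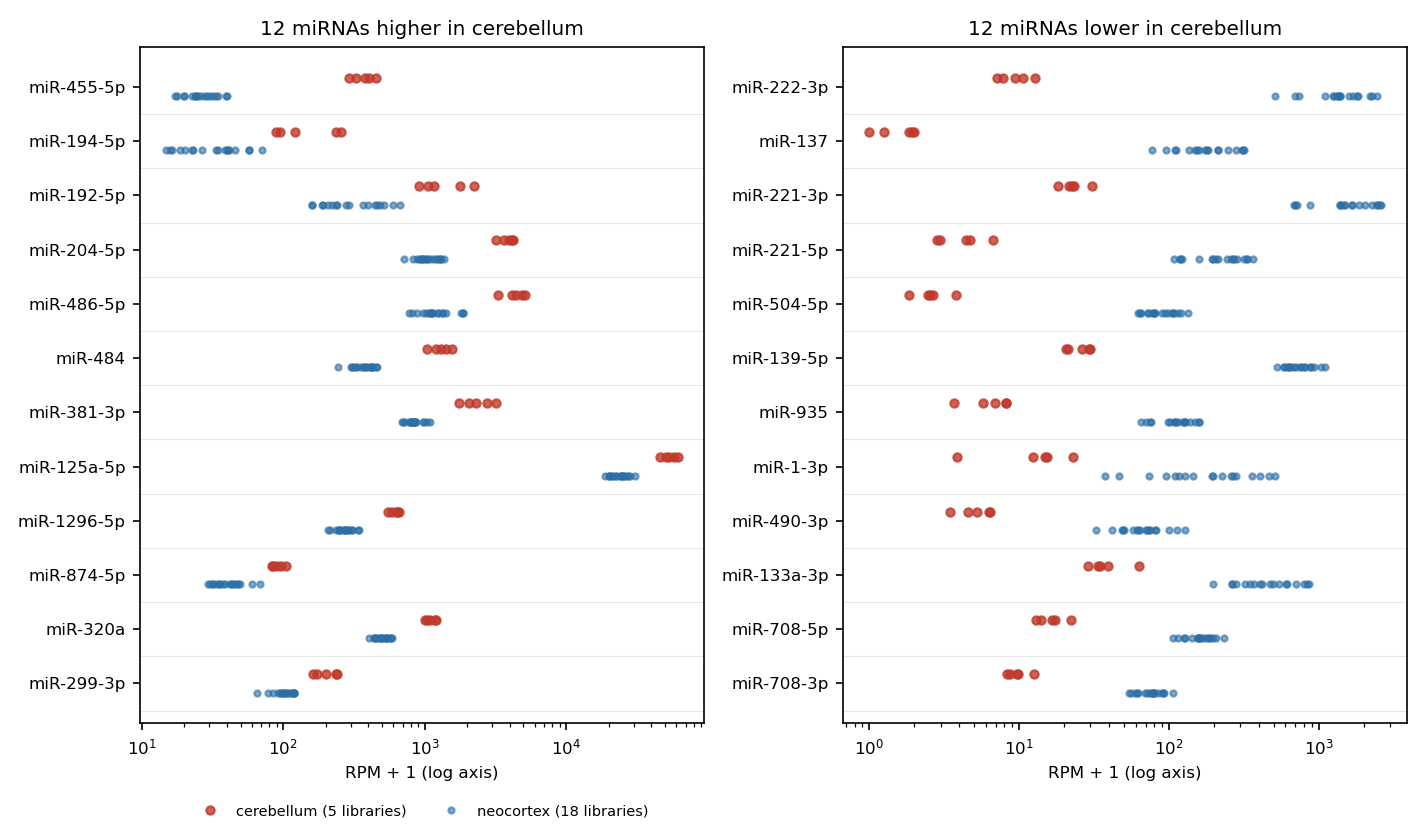
RPM + 1 (log axis) of the 12 miRNAs with the largest higher values in the cerebellum (left) and the 12 with the largest lower values (right), among those past the threshold, the same way in all 5 animals and with at least 50 RPM on average. Each red point is 1 of 5 cerebellum libraries and each blue point 1 of 18 neocortex libraries. For none of the 24 miRNAs do the tissues overlap, while of all miRNAs 11% lay wholly above the neocortex and 27.9% wholly below it.

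The depleted miRNAs were not even over the cortex. Mean hsa-miR-221-3p was 22.4 RPM in the CB, 745 in the OC, 1608 in the MC, 1740 in the PPC, 2314 in the dlPFC, 2972 in the entorhinal cortex (EC) and 3149 in the hippocampus (HC). The OC libraries (687 to 876 RPM) lay apart from the CB below (17.1 to 29.9 RPM) and from the MC above (1388 to 2253 RPM), and each further neighbour overlapped the next. hsa-miR-222-3p ran in the same order but with the EC above the HC, at 8.57 RPM in the CB, 765 in the OC and 2897 in the EC. hsa-miR-137 had a mean of 97.7 RPM in the OC and 465 RPM in the EC, and hsa-miR-935 had 5.56 RPM in the CB, 70.6 RPM in the OC and 164 RPM in the HC. hsa-miR-139-5p was flatter over the cortex, from 659 RPM in the OC to 1243 RPM in the EC.

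The muscle-type pair ran the other way over the same cortex. Mean hsa-miR-133a-3p was 39.0 RPM in the CB, 162 in the EC, 168 in the HC, 274 in the dlPFC, 393 in the PPC, 565 in the MC and 802 in the OC. The OC range of 709 to 867 RPM stood above the MC range of 496.4 to 611 RPM, while the HC (95.9 to 254 RPM) and EC (137.6 to 196 RPM) overlapped. hsa-miR-1-3p was also highest in the OC (362.3 RPM). Its OC libraries, from 73.1 RPM in B4 to 507 RPM in B5, overlapped those of every other cortical region. Within each animal that had an OC library, the OC was the highest of the regions. These levels are a description, and the cortical regions were not tested against each other.

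**Figure D3:**
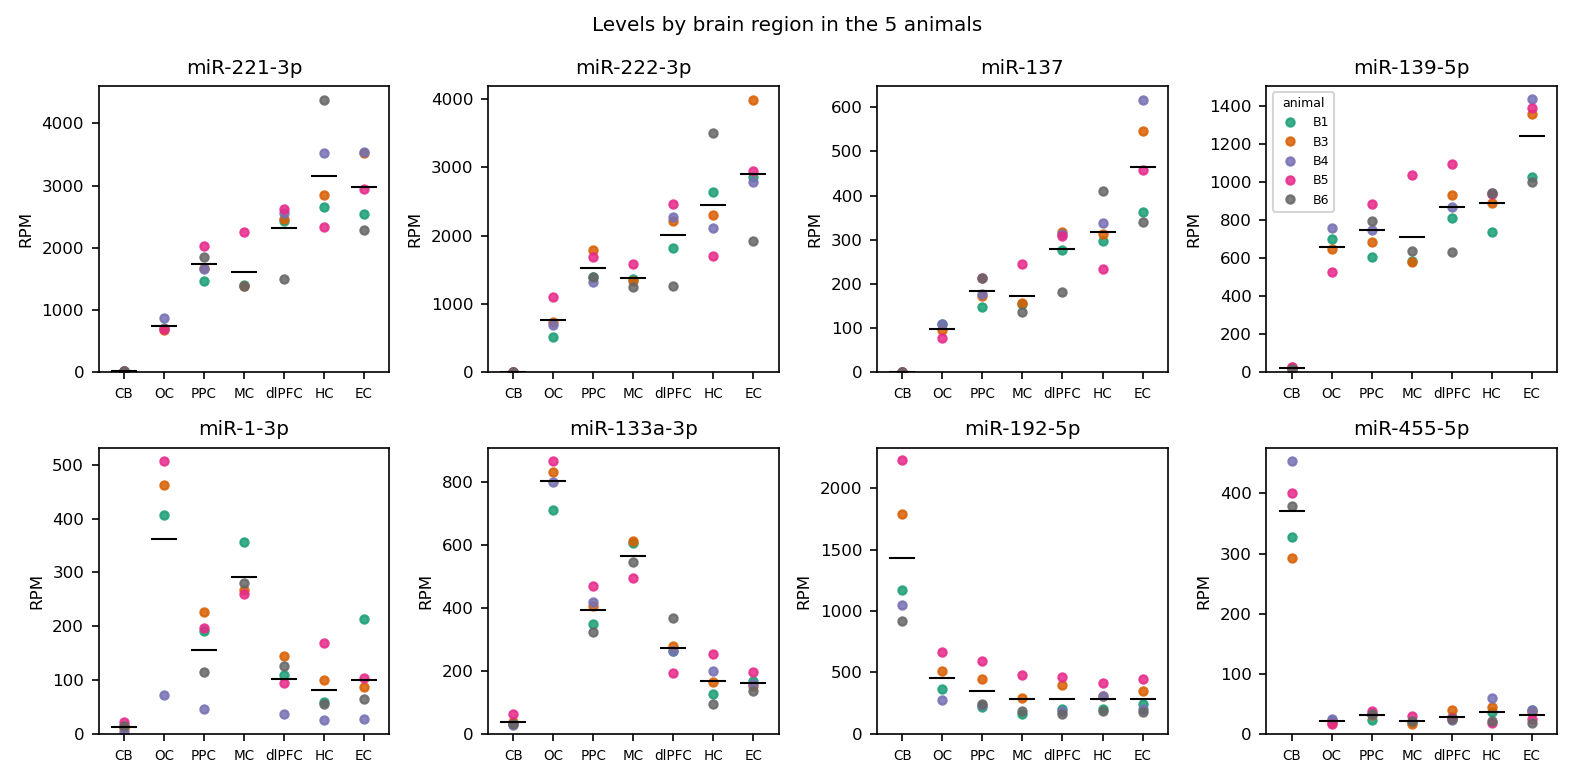
RPM of 8 miRNAs in the cerebellum (CB, left in each panel), in the 4 neocortical regions OC, PPC, MC and dlPFC, and in the hippocampus (HC) and entorhinal cortex (EC) of the 5 animals. Points are libraries coloured by animal and black bars are means. miR-221-3p, miR-222-3p, miR-137 and miR-139-5p are near zero in the CB and have their lowest cortical mean in the OC, miR-1-3p and miR-133a-3p have their highest mean in the OC, and miR-192-5p and miR-455-5p in the CB.

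At the other end, hsa-miR-455-5p was the miRNA most raised in the cerebellum. This miRNA is processed from an intron of the collagen gene COL27A1 in humans and is best known from cartilage. It had 328, 292, 454, 401 and 379.9 RPM in the cerebellum, against 16.1 to 39.3 (median 24.7) RPM in the neocortex, a difference of 3.80 ± 0.09 (adjusted p = 2.9e-08). Its 3p arm, hsa-miR-455-3p, had 38.9 to 73.9 RPM in the cerebellum, against 2.08 to 8.85 RPM in the neocortex (3.01 ± 0.19). Hippocampus and entorhinal cortex did not share the high level, with 17.8 to 58.9 RPM of hsa-miR-455-5p in the HC and 18.7 to 39.7 RPM in the EC.

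miR-192 and miR-194, clustered miRNAs of liver, kidney and gut epithelium, rose together. hsa-miR-192-5p had 1171, 1792, 1052, 2226 and 919 RPM in the cerebellum, against 227, 403, 231, 545 and 193 RPM in the neocortex of the same animals. The level differed more than 2-fold between animals in both tissues, with B5 highest, B3 second and B6 lowest in both. The difference within an animal was nonetheless narrow, from 2.03 to 2.36 (2.19 ± 0.08, adjusted p = 2.3e-07). hsa-miR-194-5p had 121, 236, 94.2, 257 and 88.7 RPM in the cerebellum, against 27.3, 39.1, 22.2, 49.9 and 15.98 RPM in the neocortex of the same animals, again with B5 and B3 highest in both (2.29 ± 0.10).

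The paralogs miR-204 and miR-211, which share a family and lie in introns of TRPM3 and TRPM1 in humans, moved in opposite directions. hsa-miR-204-5p, a miRNA of choroid plexus and retinal pigment epithelium, had 3218, 3647, 4198, 4124 and 3926 RPM in the cerebellum, against 713 to 1379 (median 1030.3) RPM in the neocortex (1.86 ± 0.08). hsa-miR-211-5p had 33.9, 37.7, 26.3, 57.6 and 33.3 RPM in the cerebellum, against 75.4 to 327 (median 180.8) RPM in the neocortex (-2.23 ± 0.13). Neither overlapped between the tissues, beside 11% of all miRNAs wholly above the neocortex and 27.9% wholly below it. Both kept their direction under each scaling. hsa-miR-204-5p was at 3218 to 4198 RPM in the CB and, of the other regions, highest in the HC, at 1275 to 3135 RPM.

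hsa-miR-486-5p, an erythroid and muscle miRNA from the ANK1 locus, had 4149, 5102, 4891, 4434 and 3307 RPM in the cerebellum, against 769.5 to 1871 (median 1139) RPM in the neocortex (1.85 ± 0.17). The other erythroid miRNAs did not share this direction. hsa-miR-451a, the defining miRNA of red cells, averaged 221.6 ± 15.7 RPM in the cerebellum and 336 ± 84.6 RPM in the neocortex (-0.57 ± 0.16), hsa-miR-144-3p differed by -0.64 ± 0.16 and hsa-miR-144-5p by -0.85 ± 0.15. Under median of ratios only hsa-miR-144-5p of these 3 passed (-0.47, adjusted p = 0.017 in limma), and under quantile normalization none did, with hsa-miR-144-3p at 0.02.

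Further raised miRNAs were tightly grouped. hsa-miR-484 had 1207, 1038, 1417, 1294 and 1552 RPM in the cerebellum, against 245 to 457 (median 379.1) RPM in the neocortex (1.79 ± 0.08). hsa-miR-320a, which is made without the nuclear processing enzyme Drosha, had 1001 to 1196 RPM in the cerebellum, against 406 to 582 RPM in the neocortex (1.14 ± 0.07). hsa-miR-1296-5p, in a JMJD1C intron in humans, had 546 to 659.6 RPM in the cerebellum, against 206 to 342 RPM in the neocortex (1.18 ± 0.08). hsa-miR-874-5p, in a KLHL3 intron in humans, had 83.0 to 103 RPM in the cerebellum and 28.3 to 67.8 RPM in the neocortex (1.17 ± 0.12). All of these, picked among the largest differences, kept apart from the neocortex in every library, while 11% of all miRNAs lay wholly above it.

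The most abundant miRNAs changed their ranks. The cerebellum was led by hsa-miR-26a-5p, hsa-miR-125a-5p, hsa-miR-181a-5p, hsa-miR-9-5p and hsa-miR-99b-5p, and the neocortex by hsa-miR-181a-5p, hsa-miR-26a-5p, hsa-miR-9-5p, hsa-miR-27b-3p and hsa-miR-22-3p. Of these, hsa-miR-26a-5p, made from introns of CTD phosphatase genes, had 118834, 117111, 98953, 106689.7 and 124307 RPM in the cerebellum, against 65539 to 88275 (median 74074) RPM in the neocortex (0.61 ± 0.08). It took 9.90% to 12.4% of the reads of each cerebellum library. hsa-miR-125a-5p, a relative of the first miRNA found in worms, lin-4, had 53666, 62048, 46119.8, 58146 and 50576 RPM in the cerebellum, against 18807 to 30796 (median 24272) RPM in the neocortex (1.20 ± 0.08). hsa-miR-181a-5p had 33664, 33691, 40635, 28309 and 40699 RPM in the cerebellum, against 64302 to 99365 (median 82141) RPM in the neocortex (-1.23 ± 0.09). hsa-miR-22-3p averaged 10551 ± 608 RPM in the cerebellum and 28256 ± 1972 RPM in the neocortex (SD, n = 5 animals each, -1.42 ± 0.08). hsa-miR-27b-3p differed little (-0.26 ± 0.09), and its sign turned under median of ratios (0.16).

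Among the miRNAs that mark neurons of any region, the families moved apart. hsa-miR-124-3p, which represses non-neuronal messages in neurons, had 9748, 9685, 12073, 12696 and 13113 RPM in the cerebellum, against 3741 to 9252 (median 6255) RPM in the neocortex (0.85 ± 0.08), and hsa-miR-124-5p was also higher (0.40 ± 0.09). hsa-miR-128-3p, which restrains neuronal excitability in mice, had 6529, 8413, 7678, 9389 and 9267 RPM in the cerebellum, against 9966 to 24761 (median 13483) RPM in the neocortex (-0.81 ± 0.11). The arms that tell its hairpins apart were both lower, hsa-miR-128-1-5p by -1.85 ± 0.12 and hsa-miR-128-2-5p by -0.96 ± 0.10, and the human hairpins lie in R3HDM1 and ARPP21. hsa-miR-9-5p, of neural progenitors and neurons, averaged 33336 ± 5201 RPM in the cerebellum and 30713 ± 3891 RPM in the neocortex and did not pass (0.11 ± 0.07, 95% interval -0.06 to 0.29). Of the 3 scalings, only median of ratios put both miR-9 arms past the threshold, as higher.

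The cluster of miR-132 and miR-212, which is induced by neuronal activity through the transcription factor CREB, was lower in all 4 of its arms. hsa-miR-132-3p had 230.3, 167, 327, 189.7 and 309 RPM in the cerebellum, against 504.3 to 1092 (median 753) RPM in the neocortex (-1.65 ± 0.14). The other 3 arms gave nearly the same difference, from -1.61 for hsa-miR-212-3p to -1.76 for hsa-miR-212-5p. No library of either tissue overlapped for any of the 4, while 27.9% of all miRNAs lay wholly below the neocortex.

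Of 14 further neuronal miRNAs 3 were higher and 10 lower, with a median of -0.76, beside 23.2% higher, 55.5% lower and a median of -0.41 for all miRNAs. The counts were 3 and 7 under median of ratios and 5 and 8 under quantile normalization. hsa-miR-218-5p, from introns of the axon guidance genes SLIT2 and SLIT3, had 950.5 to 1474 RPM in the cerebellum, against 336 to 1369.9 RPM in the neocortex (0.76 ± 0.12), but its sign turned against the HC (-0.13) and the EC (-0.20), neither past the threshold. hsa-miR-874-3p was higher (0.71 ± 0.12). hsa-miR-383-5p averaged 126.6 ± 30.7 RPM in the cerebellum and 419 ± 56.9 RPM in the neocortex (-1.75 ± 0.15). hsa-miR-149-5p (-0.68 ± 0.10) and hsa-miR-153-3p (-0.48 ± 0.09) were closer to the shift of all miRNAs and did not pass under that scaling. Of the miR-129 list only hsa-miR-129-5p passed (-0.45 ± 0.11), while hsa-miR-129-2-3p was at 0.32 ± 0.15, and under median of ratios 2 of its 3 members were higher and none lower.

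**Figure D4:**
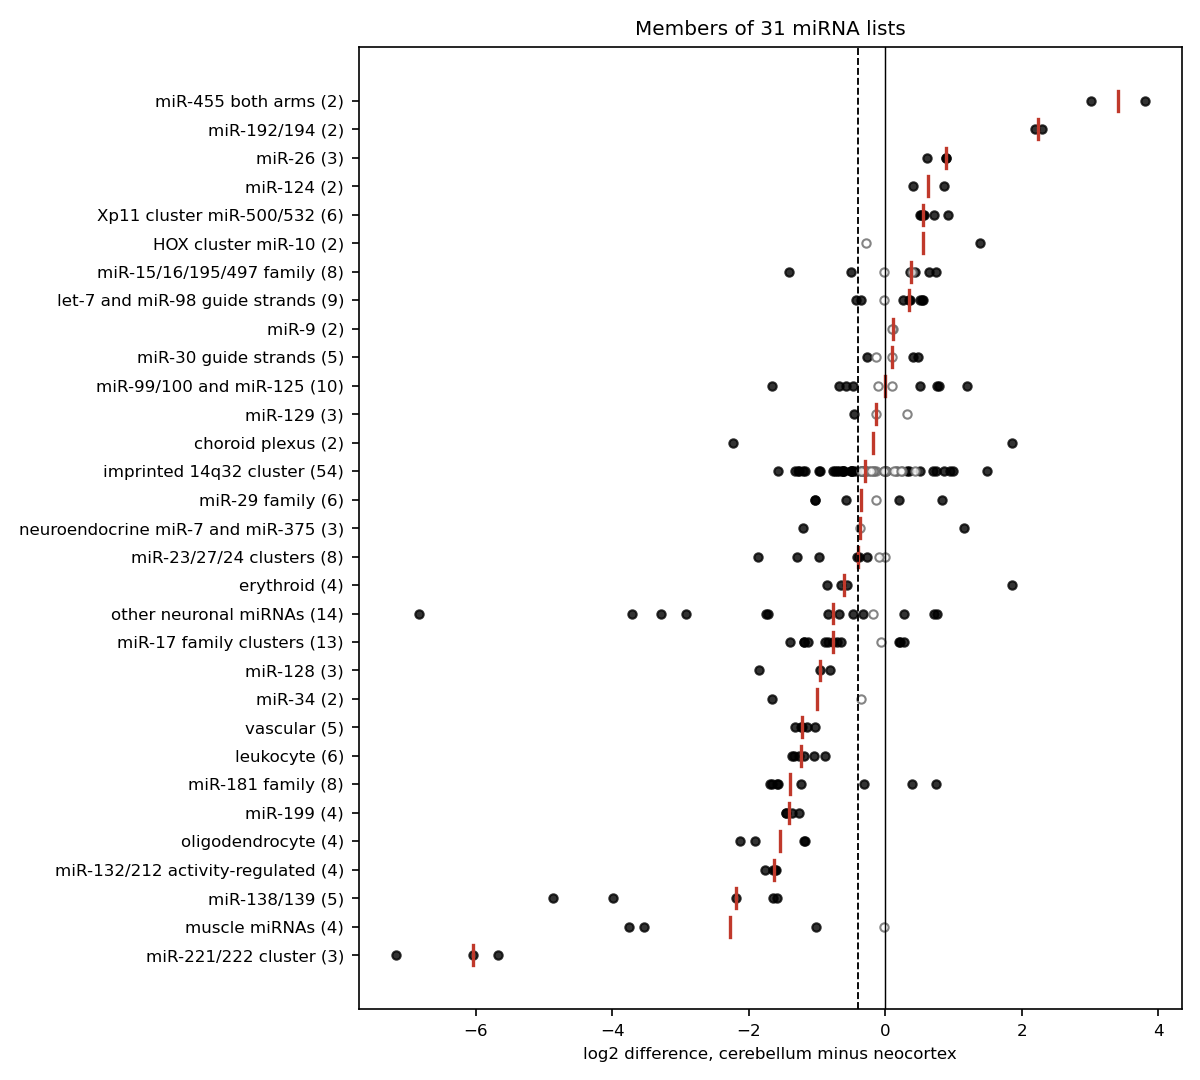
Log2 difference (cerebellum minus neocortex) of each member of 31 miRNA lists, with the number of members in brackets. Filled points passed an adjusted p of 0.05, open points did not, red bars are list medians, the solid line is zero and the dashed line the median of all miRNAs (-0.41). The lists run from miR-455 at the top to the cluster of miR-221 and miR-222 at the bottom.

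For 6 pairs of related clusters or paralogs the differences are set side by side. The pairs were chosen after their values were seen, so they are described and not tested, and say nothing of how often paralogs part. Because both are read in the same library, a single scaling factor per library leaves the gap between them nearly as it is. The mean difference of hsa-miR-181a-5p and hsa-miR-181b-5p was -1.40, while that of hsa-miR-181c-5p and hsa-miR-181d-5p, which share a separate cluster, was 0.57. The gap was -1.97, between -2.05 and -1.93 in the 5 animals. hsa-miR-181c-5p itself averaged 6975 ± 853 RPM in the cerebellum and 4161 ± 408.9 RPM in the neocortex (0.74 ± 0.08), and hsa-miR-181b-5p 2002 ± 157 RPM in the cerebellum and 5959 ± 622 RPM in the neocortex (-1.57 ± 0.08). hsa-miR-181d-5p turned to -0.01 against the OC alone.

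The next pair are the clusters that carry a miR-99, a let-7 and a miR-125. hsa-miR-99b-5p, hsa-let-7e-5p and hsa-miR-125a-5p had a mean difference of 0.75, and it was 0.73 to 0.76 in the 5 animals. hsa-miR-99a-5p, hsa-let-7c-5p and hsa-miR-125b-5p had one of -0.38, from -0.42 to -0.31. The gap was 1.12 (1.07 to 1.18). Singly, hsa-miR-99b-5p (0.79 ± 0.09), hsa-let-7e-5p (0.25 ± 0.08) and hsa-miR-125a-5p were higher, and hsa-miR-125b-5p (-0.58 ± 0.08), hsa-let-7c-5p (-0.43 ± 0.08) and hsa-miR-100-5p (-0.68 ± 0.11) lower, while hsa-miR-99a-5p did not pass (-0.11 ± 0.08). hsa-miR-125b-5p and hsa-let-7c-5p did not pass under median of ratios (-0.17 and -0.01). hsa-let-7e-5p passed under both other scalings. It did not pass without the block (adjusted p = 0.087 in limma) or against the MC, OC, HC or EC alone.

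Of the other pairs, miR-29c and miR-29a also differed in sign, while in the miR-23 and miR-17 pairs both means were negative. Those of miR-23b and miR-27b (-0.14) and of miR-106b, miR-25 and miR-93 (-0.12) lay above the median of all miRNAs (-0.41). Both were positive in animal B5 (0.04 and 0.05). hsa-miR-29c-3p averaged 2629 ± 145.7 RPM in the cerebellum and 1481 ± 85.7 RPM in the neocortex (0.83 ± 0.08), while hsa-miR-29a-3p averaged 3264 ± 356 RPM in the cerebellum and 4875 ± 248 RPM in the neocortex (-0.58 ± 0.08). The miR-29 family is known for lowering collagen messages, and the gap between these paralogs was 1.41 (1.21 to 1.56). For miR-23b and miR-27b against miR-23a and miR-27a the gap was 1.00 (0.80 to 1.08), with hsa-miR-23a-3p at -1.29 ± 0.10, hsa-miR-27a-3p at -0.97 ± 0.07 and hsa-miR-23b-3p at -0.01 ± 0.08. For miR-106b, miR-25 and miR-93 against miR-17, miR-20a and miR-19b, clusters known for promoting cell proliferation, the gap varied more, at 0.91 (0.52 to 1.34). The first of these means joins members of opposite sign, with hsa-miR-25-3p at 0.28 ± 0.09, hsa-miR-106b-5p at 0.21 and hsa-miR-93-5p at -0.84. Of these, hsa-miR-106b-5p passed under both other scalings. It did not pass without the block (adjusted p = 0.1 in limma) or against the MC, PPC or OC alone. hsa-miR-17-5p was at -1.20 ± 0.14, and hsa-miR-92a-3p, which is not among these members, at -1.19 ± 0.10. Of the 13 arms of these miR-17 type clusters 3 were higher and 9 lower, beside 23.2% higher and 55.5% lower of all miRNAs, and under median of ratios 4 were higher and 6 lower.

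**Figure D5:**
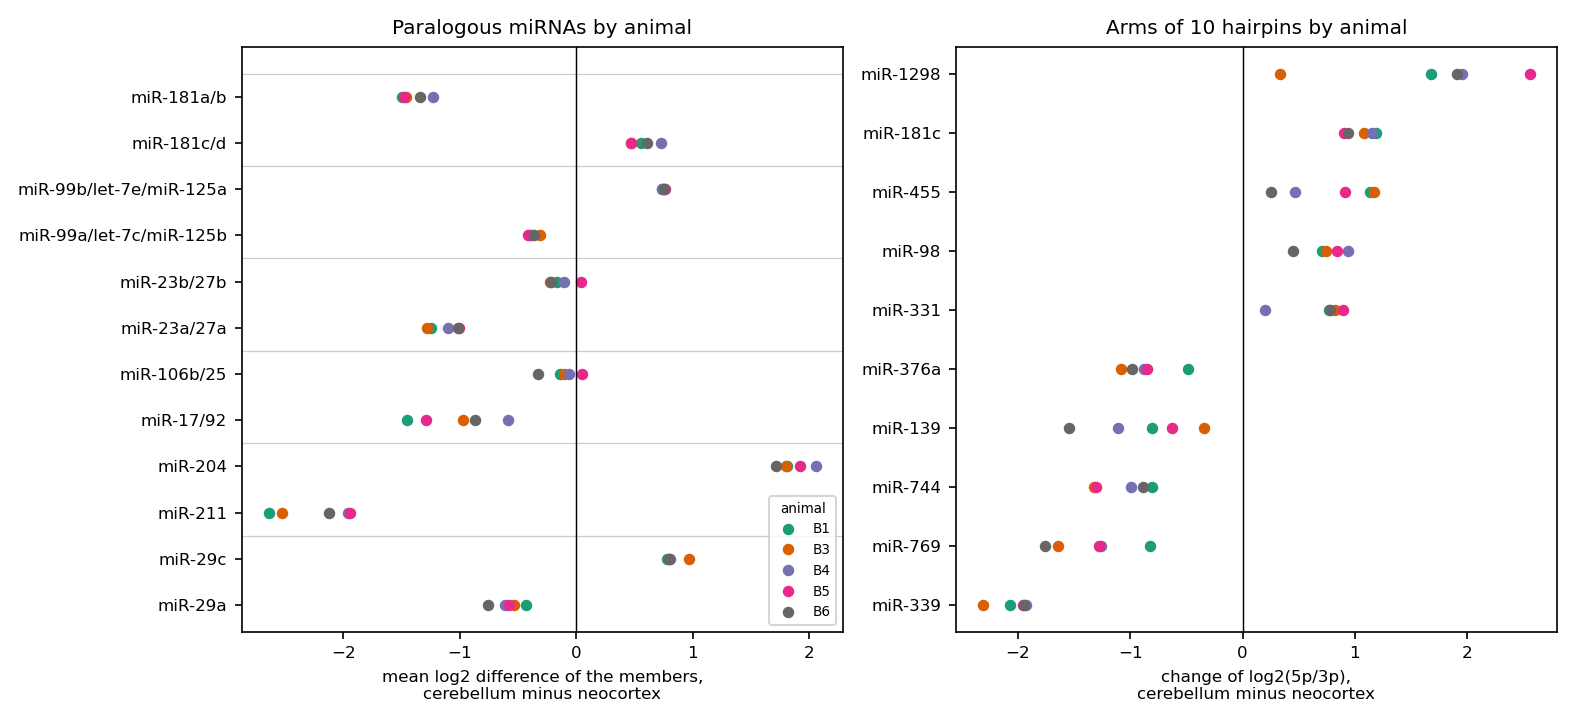
Left, mean log2 difference (cerebellum minus neocortex) of the members of paired paralogous clusters, and right, change of the log2 ratio of the 5p to the 3p arm of 10 hairpins, each point 1 of 5 animals. miR-181c/d, miR-99b/let-7e/miR-125a, miR-204 and miR-29c lie right of zero in every animal and their paralogs left of it.

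The counts of the next families stand beside 23.2% higher and 55.5% lower of all miRNAs. All 3 miR-26 arms were higher, with hsa-miR-26b-5p at 0.89 ± 0.08. Of 9 let-7 and miR-98 guide strands 6 were higher and 2 lower. Median of ratios gave 7 higher and 0 lower, and quantile normalization 6 and 1. These strands were led by hsa-let-7a-5p, which averaged 28183 ± 3237 RPM in the cerebellum and 19203 ± 2156 RPM in the neocortex (0.55 ± 0.08). This family, which holds cells in a differentiated state, had a median of 0.35. hsa-let-7i-5p depended on the cortical region: it averaged 3058 RPM in the CB, 4444 in the OC and 1702 to 1820 in the MC, dlPFC and PPC, so it was higher against the neocortex (0.51 ± 0.11) and lower against the OC alone (-0.56, adjusted p = 0.0061 in limma). In the family of miR-15, miR-16, miR-195 and miR-497, which slows the cell cycle, 4 of 8 were higher and 2 lower, with hsa-miR-16-5p at 0.64 ± 0.09 and hsa-miR-195-5p at 0.74 ± 0.18. Of 5 miR-30 guide strands 2 were higher, among them hsa-miR-30a-5p (0.48 ± 0.08), and 1 lower, hsa-miR-30c-5p (-0.27 ± 0.08), whose sign turned under median of ratios (0.14).

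hsa-miR-10a-5p, from a HOX gene cluster that is used in hindbrain and trunk, had 148.6, 96.1, 67.8, 88.7 and 56.6 RPM in the cerebellum, against 11.5 to 62.1 (median 35.7) RPM in the neocortex (1.38 ± 0.17). Its paralog hsa-miR-10b-5p had 328, 511, 171, 216 and 298.99 RPM in the cerebellum, against 116 to 859 (median 393) RPM in the neocortex, and did not pass (-0.29 ± 0.13), with the sign turned but not past the threshold under median of ratios (0.13) and quantile normalization (0.13). Against the HC alone hsa-miR-10b-5p was higher (1.29, adjusted p = 0.02 in limma). hsa-miR-7-5p, a miRNA of neuroendocrine cells that also binds the circular RNA Cdr1as, averaged 105 RPM in the CB, 86.3 in the OC and 283 to 446 in the PPC, MC and dlPFC. It was lower against the neocortex (-1.21 ± 0.16) and higher against the OC alone (0.42, adjusted p = 0.034 in limma). hsa-miR-7-1-3p, the other arm of 1 of its hairpins, was higher (1.16 ± 0.09). hsa-miR-34a-5p, which p53 induces, was lower (-1.67 ± 0.17). So were all 4 miR-199 arms, beside 55.5% of all miRNAs, hsa-miR-199a-3p among them (-1.46 ± 0.10). The values of hsa-miR-199a-3p and hsa-miR-199b-3p were identical, so reads of these arms were not told apart.

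The imprinted 14q32 cluster, a large cluster of miRNAs expressed from the maternal chromosome, held members of both directions. Of its 54 members 9 were higher, 23 lower and 22 did not pass, with a median of -0.29, beside 23.2% higher and 55.5% lower and a median of -0.41 over all miRNAs. Median of ratios gave 20 higher and 11 lower and quantile normalization 33 and 9, so the balance of the cluster turned with the scaling. Its members spanned -1.58 to 1.48. hsa-miR-381-3p had 2296, 2047, 3177, 2739 and 1756 RPM in the cerebellum, against 693 to 1094 (median 834) RPM in the neocortex (1.48 ± 0.12), and hsa-miR-299-3p was also higher (0.99 ± 0.14). hsa-miR-433-3p averaged 37.1 ± 9.89 RPM in the cerebellum and 111 ± 13.2 RPM in the neocortex (-1.58 ± 0.12). The most abundant member, hsa-miR-127-3p, averaged 13664 ± 3549 RPM in the cerebellum and 14782 ± 1388 RPM in the neocortex and did not pass (-0.14 ± 0.13). The first 3 of these kept their direction under both other scalings, and hsa-miR-127-3p was at 0.28 under median of ratios and 0.14 under quantile normalization, neither past the threshold.

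The listed miRNAs of the Xp11 cluster of miR-500 and miR-532 were all higher, beside 23.2% of all miRNAs. The 6 members lay between 0.51 and 0.92, and all 6 passed under each of the 3 scalings. hsa-miR-532-5p averaged 180.1 ± 18.02 RPM in the cerebellum and 95.2 ± 12.1 RPM in the neocortex (0.92 ± 0.10), and hsa-miR-500a-3p averaged 358 ± 52.7 RPM in the cerebellum and 243 ± 25.3 RPM in the neocortex (0.55 ± 0.08).

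Markers of other cells in the tissue blocks also differed, and their counts stand beside 23.2% higher and 55.5% lower of all miRNAs. All 4 oligodendrocyte miRNAs, which drive myelinating cells to mature, were lower, and their summed level was 2927 to 3652 RPM in the cerebellum and 5309 to 12893 RPM in the neocortex. hsa-miR-219a-5p had 297, 233, 309, 274 and 272 RPM in the cerebellum, against 647 to 1511 (median 1093) RPM in the neocortex (-1.91 ± 0.10), and hsa-miR-338-3p was at -1.19 ± 0.10. All 5 vascular miRNAs were lower, with sums of 11454 to 15539 RPM in the cerebellum and 19769.5 to 48144 RPM in the neocortex, among them the smooth muscle miRNA hsa-miR-143-3p (-1.22 ± 0.10) and the endothelial hsa-miR-126-3p (-1.15 ± 0.08). All 6 leukocyte miRNAs were lower, with sums of 308.6 to 432.5 RPM in the cerebellum and 559.4 to 1052.6 RPM in the neocortex, including hsa-miR-142-5p (-1.19 ± 0.09) and hsa-miR-150-5p (-1.37 ± 0.09). Under quantile normalization 5 of the 6 were lower, and hsa-miR-146a-5p did not pass (-0.14). Of the 4 erythroid miRNAs 1 was higher and 3 lower, with sums of 3541 to 5359.8 RPM in the cerebellum and 989.7 to 2646 RPM in the neocortex, most of it hsa-miR-486-5p. The 2 choroid plexus miRNAs parted as given above, with sums of 3252 to 4224 RPM in the cerebellum and 1016 to 1511 RPM in the neocortex. No member of these 5 lists was at 0 in any library, and their part in the other differences was not tested.

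The arms of a hairpin mostly moved together. Arms were paired by their shared name, so an arm made from several hairpin copies was not split by copy. Over 91 hairpins with both arms measured, the differences of the 5p and the 3p arm correlated with r = 0.91 and rho = 0.84 as a description across hairpins, which share libraries, and had the same sign in 79. The ratio of the arms was then compared within libraries, where a single scaling factor per library drops out but for the pseudocount. It passed for 36 hairpins (39.6%) in limma, in 16 (17.6%) toward the 5p and in 20 (22%) toward the 3p arm. These counts moved with the settings: 31 hairpins passed toward the 5p arm with a pseudocount of 10 RPM, and 19 passed in all against the MC alone, 14 against the OC alone and 23 against the HC alone.

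Hairpin miR-339 had the largest change. hsa-miR-339-5p had 12.2, 14.1, 13.5, 16.96 and 20.5 RPM in the cerebellum, against 21.5 to 56.8 (median 33.3) RPM in the neocortex, while hsa-miR-339-3p had 558, 421, 805, 769.5 and 662 RPM in the cerebellum, against 203 to 505 (median 351) RPM in the neocortex. The arms thus moved in opposite directions, -1.18 ± 0.08 and 0.86 ± 0.08, also under both other scalings. The log2 ratio of 5p to 3p was -5.28 in the cerebellum and -3.24 in the neocortex, a change of -2.04 ± 0.09 (SE, adjusted p = 1.2e-06 in limma). Toward the 3p arm also moved miR-769 (-1.35 ± 0.14) and miR-744 (-1.06 ± 0.10), where the abundant 5p arms fell (-1.55 ± 0.09 and -1.55 ± 0.11) and the rare 3p arms stood at -0.20 ± 0.12, not past the threshold, and -0.48 ± 0.10.

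miR-376a (-0.85 ± 0.10) and miR-139 (-0.88 ± 0.16) moved the same way, but the 3p arm of miR-139 had only 1 to 5 reads per cerebellum library, and its ratio changed by 0.40 in the other direction with a pseudocount of 0.1 RPM. Toward the 5p arm moved miR-1298 (1.68 ± 0.27), miR-181c (1.05 ± 0.08), miR-455 (0.79 ± 0.15), miR-98 (0.73 ± 0.09) and miR-331 (0.69 ± 0.11). Of miR-181c, the 5p arm was higher (0.74 ± 0.08) and the 3p arm slightly lower in RPM (-0.31 ± 0.08), a sign that turned under both other scalings. miR-1298 rested on a low 3p arm of 1.95 RPM in the cerebellum, against 11.3 RPM in the neocortex, and its change ran from 0.34 to 2.56 in the 5 animals.

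The counts were similar with each region as the reference. Against the dlPFC alone 283 miRNAs passed, against the MC 266, the PPC 271 and the OC 249, and against the HC 285 and the EC 291. The cerebellum libraries are shared by these fits, except that the MC and OC fits had 4 animals, without B4 for the MC and without B6 for the OC. Of the 285 miRNAs called against the neocortex, 220 were called in the same direction against the OC alone and 6 in the opposite direction, and against each other neocortical region none was called in the opposite direction. The median of all differences was -0.19 against the OC and -0.59 against the dlPFC. Among miRNAs of at least 50 RPM on average, the 12 most depleted and 12 most raised kept their direction and their call against every region. Of the rarer ones, hsa-miR-1298-3p (-2.02) did not pass against the OC alone (-0.51).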

How the data were processed

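Small RNA libraries (Illumina TruSeq small RNA kit) of 14 brain regions and blood cells from 10 baboons were sequenced in at least 2 runs each. The authors trimmed adapters, aligned reads to human mature miRNAs of miRBase with bowtie in mirDeep2 (the versions of both tools are not given in the sources used here), combined the runs of a library and left out libraries with few mapped reads, which cost the comparison B2 (no cerebellum) as well as an MC library of B4 and an OC library of B6. A read that does not match the human sequence exactly was not counted. The deposited table holds 362 miRNAs with at least 10 reads in 80% or more of brain samples, as RPM, which the authors scaled to 1000000 mapped miRNA reads per library, and a total read count per miRNA over all 76 libraries, deposited by the authors without scaling. The 362 miRNAs held 62.0% to 63.1% of the reads of a cerebellum library and 62.2% to 65.5% of a neocortex library.

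For each library the total was sought at which low RPM values (at most 200.0) correspond to whole reads, and 100% of them did within 0.1 reads. Summed over libraries these reads were 0.999957 to 1.000001 of the deposited total counts. They were used only for depth and for the reads of single miRNAs.

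limma 3.58.1 (R 4.3.3) was fitted to log2(RPM + 1) blocking on the animal, and p-values were adjusted by Benjamini-Hochberg over all 362 miRNAs, or over 91 hairpins for the log2 ratio of the arms, at 0.05. Other tables were made in Python 3.11.15. Pairs were formed from the animal that the labels give for each library. As a check, deviations of the cerebellum and neocortex values from their means over animals correlated within an animal with r of 0.45 to 0.57 over 222 miRNAs. The fit was tested on simulated data.

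Named miRNAs were the 12 higher and 12 lower with the largest difference among those past the threshold, the same way in all 5 animals and with at least 50 RPM on average, up to 4 members of each of 31 lists by level, the 5 most abundant of each tissue, and the arms of up to 5 hairpins with the largest change in each direction. The members of the comparison and the lists were chosen with earlier results of these data known. hsa-miR-208b-3p is named as the exception in its list, and the members of the paired clusters, as well as arms and miRNAs named for a scaling or region, were chosen after their values were seen. Alternatives were no block, other pseudocounts, a filter at 10 RPM, median of ratios, quantile normalization, an intensity trend, the median over neocortical libraries, each region as the reference and each animal left out. RPM rescaled to the sum of the 362 miRNAs was added after the data were seen.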

Additional observations from a re-analysis of the deposited data

Results flagged for a closer look

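In 10 of the sets of 5 within-animal differences (1 set for each named miRNA or hairpin), 1 animal lay far from the other 4, which is 7.04% of them. Chance alone gives about 1 in 20 sets, here 7.1. Animal B4 held 4 of them: hsa-miR-376a-5p at 0.38 (others -0.15 to -0.05), hsa-miR-433-3p at -1.03 (others -1.76 to -1.67), hsa-miR-99b-5p at 1.05 (others 0.67 to 0.77) and the arm ratio of miR-331 at 0.20 (others 0.77 to 0.89). hsa-miR-376a-5p and hsa-miR-433-3p are 14q32 members, and B4 has no MC library. B3 was high for hsa-miR-29c-3p at 0.97 (others 0.78 to 0.80) and for hsa-miR-339-3p at 1.03 (others 0.81 to 0.83). B1 was at -0.61 for hsa-miR-128-2-5p (others -1.11 to -0.96) and at 1.41 for hsa-miR-7-1-3p (others 1.03 to 1.14). B5 was at 0.18 for hsa-miR-874-3p (others 0.79 to 0.90), and B6 at -1.59 for hsa-miR-144-5p (others -0.68 to -0.65). The causes were not tested.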

How the results depend on the processing

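Among miRNAs of at least 50 RPM on average, the 12 most raised and 12 most depleted kept their direction and call under all 22 alternatives run, and so did 86 of the named values in all, while 56 changed their call or sign under at least 1. Without the replicate block 264 miRNAs passed in place of 285 and 32 hairpins in place of 36, with no call turned. With an animal left out 263 to 286 miRNAs passed (73 to 84 higher, 187 to 207 lower), and 28 to 37 hairpins did. The higher miRNAs numbered 135 under median of ratios and 161 under quantile normalization, in place of 84, with 1 and 16 of the 285 called in the opposite direction. For the arm ratio, 5p gains were 31 with a pseudocount of 10 RPM, against 16. Against the MC alone 19 hairpins passed (7 toward 5p, 12 toward 3p), against the OC alone 14 (7 and 7), against the HC 23 (9 toward 5p) and against the EC 9 toward 5p. The MC and OC fits had 4 animals, and the cause was not tested.

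These signs turned, with at least 1 of the compared values past the threshold. Under median of ratios: hsa-miR-181c-3p 0.11, hsa-miR-23b-3p 0.41, hsa-miR-27b-3p 0.16, hsa-miR-30c-5p 0.14, hsa-miR-331-3p 0.0131, hsa-miR-98-5p 0.0651 and hsa-miR-99a-5p 0.30. Under quantile normalization: hsa-miR-1298-5p 0.38, hsa-miR-144-3p 0.0192, hsa-miR-181c-3p 0.0413, hsa-miR-23b-3p 0.28, hsa-miR-331-3p 0.38, hsa-miR-744-3p 0.20 and hsa-miR-769-3p 0.47. With neither value past the threshold, hsa-miR-10b-5p, hsa-miR-127-3p and hsa-miR-375 turned under both scalings, hsa-miR-1298-5p (0.0294) and hsa-miR-769-3p (0.20) under median of ratios and hsa-miR-99a-5p (0.0471) under quantile normalization. Against the OC: hsa-let-7i-5p -0.56, hsa-miR-1298-5p 0.93, hsa-miR-181d-5p -0.0105, hsa-miR-331-3p 0.23 and hsa-miR-7-5p 0.42. Against the HC: hsa-miR-10b-5p 1.29, hsa-miR-129-5p 0.29, hsa-miR-181c-3p 0.18, hsa-miR-218-5p -0.13, hsa-miR-30c-5p 0.0141, hsa-miR-376a-5p -0.46 and hsa-miR-654-3p -0.17. Against the EC: hsa-miR-129-5p 0.0554, hsa-miR-218-5p -0.20, hsa-miR-331-5p -0.13, hsa-miR-376a-3p -0.15, hsa-miR-376a-5p -0.46 and hsa-miR-654-3p -0.009. The arm ratio of miR-139 was 0.40 with a pseudocount of 0.1 RPM. For region references the cause was not tested. Tests on read counts were planned and not run, because a separate check of the steps in RPM accepted whole reads in only some of the libraries. Reads limit hsa-miR-137 and hsa-miR-139-3p in the cerebellum.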
